A study of Rattus norvegicus with 15 samples.

Results

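The comparison asks how a mammary gland with a past full-term pregnancy differs from one with a past course of estrogen and progestin, each of which has been studied in rats as an exposure that lowers later mammary cancer risk. Its members were chosen by label: the 5 pregnancy arrays against the 5 hormone arrays, 10 of the 15 in the study, with the 5 control arrays shown beside them. Each array holds 1 gland, the left inguinal one, from 1 female Lewis rat, a virgin aged 3 months at the start. The pregnancy rats carried to term over 21 to 23 days with sham capsules of cellulose in place, and lost their pups within 4 to 6 hours of birth, so they never nursed. The hormone rats instead wore 2 silastic capsules for 21 days, 1 with 100 µg of ethynyl estradiol, a synthetic estrogen, and 1 with 30 mg of megestrol acetate, a progestin that the labels spell megesterol acetate. Controls were never pregnant and had sham capsules. Every rat then rested for about 49 days and was killed in metestrus, the phase of the estrous cycle after ovulation. Neither exposure included lactation, and the hormone course is a synthetic estrogen with a synthetic progestin at 1 dose, not the hormones of the ovary and placenta.

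The mammary gland is a tree of luminal and myoepithelial cells set in fat, collagen-rich stroma, vessels, nerves and immune cells. In pregnancy estrogen and progesterone act together with prolactin and placental lactogens, and prolactin signals through its receptor, Jak2 and Stat5 to switch on the milk protein genes. After the young are gone the alveoli regress, macrophages clear milk fat and dying cells, and the stroma is rebuilt. A whole piece of gland was measured, so fewer cells of a type and less RNA per cell cannot be told apart in any value below.

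All values are RMA values, background-corrected and quantile-normalised array intensities on a log2 scale, so that a difference of 1 is a 2-fold difference. A probe set is a group of short probes for 1 transcript. The values of a gene are given in the order of the rats' numbers in the labels: 1, 2, 3, 7 and 9 for pregnancy and 1 to 5 for hormone, with controls 1, 2, 4, 5 and 6. Differences are pregnancy minus hormone from limma, with moderated standard errors (SE) and p values adjusted by the Benjamini-Hochberg method over 31042 probe sets.

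The tissue carried what its label says. Keratin 18, casein alpha s1 and adiponectin (Krt18, Csn1s1 and Adipoq), which mark luminal cells, milk-forming cells and fat cells, were called present on all 10 arrays. The share of probe sets called present was 65.43 to 67.6% after pregnancy and 65.34 to 66.92% after hormone. The 3' over 5' log2 ratio of the GAPDH control probe sets, which grows as RNA degrades, was 0.46 to 0.59 and 0.54 to 0.63. Skeletal muscle transcripts stood high on pregnancy arrays 7 and 9 and on hormone array 4, where the list of 26 muscle genes lay 1.61, 1.99 and 3.55 log2 units above its mean over 15 arrays. The inguinal gland holds a lymph node, and the list of 16 lymph node genes was at 1.06 on pregnancy array 3, against −0.97 to 0.00 on the hormone arrays. Their part in the results was not tested, and some results are given with and without these arrays.

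The 2 glands were close to each other. Of 31042 probe sets 1 passed an adjusted p under 0.05 in limma, which is 0.00322%. At an unadjusted p under 0.05, 1380 probe sets lay higher after pregnancy (4.45%) and 1712 lower (5.52%), so 9.96% in all against the 5% that no difference would give. With 1 probe set for each of 14233 genes, the brightest, 410 genes were higher at that p (2.88%) and 903 lower (6.34%). At any p, 6381 genes lay higher after pregnancy and 7852 lower, the background for the counts of higher and lower list members below. The median difference over all genes was −0.02, and 97.7% of genes lay within 0.5 log2 units of 0. Over the arrays of a group the median gene had an SD of 0.13 after pregnancy and 0.12 after hormone.

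**Figure D1:**
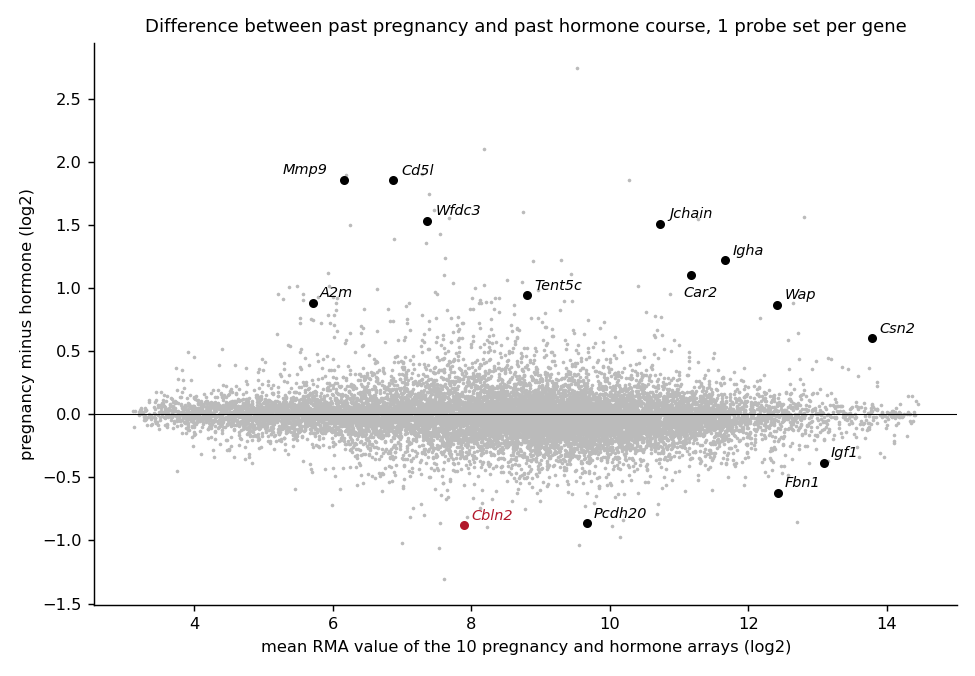
Pregnancy minus hormone (log2, vertical axis) against the mean RMA value of the 10 arrays (log2, horizontal axis), 1 grey point for each of 14233 genes, with named genes as large points and Cbln2, the gene that passed, in red. Most points lie near 0, and more of the wide differences point up than down.

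Cbln2 was the gene that passed. It encodes cerebellin 2, a secreted protein known from the brain, where it links the 2 sides of a synapse. Its log2 values were 7.74, 7.49, 7.40, 7.41 and 7.25 after pregnancy and 8.63, 8.30, 8.42, 8.23 and 8.11 after hormone. The groups did not overlap, and the 5 controls, at 7.72, 7.67, 7.60, 7.29 and 7.68, lay within the pregnancy range. Cbln2 was lower after pregnancy by 0.88 (log2 −0.88, SE 0.11, 95% interval −1.12 to −0.64, n = 5 per group, limma adjusted p = 0.0359), or 1.84-fold as an estimate from the measured values. Present calls were made on 5 of 5 hormone, 1 of 5 pregnancy and 4 of 5 control arrays, so most pregnancy values were not told from background, while controls at the same level mostly were. The difference stayed between −0.95 and −0.81 in every alternative fit. Its adjusted p was 0.0777 once the lymph node level entered as a covariate and 0.991 without the 3 muscle-rich arrays, and it passed without 4 of the 15 arrays in turn (pregnancy 1 and 2, control 5 and hormone 5). Its adjusted p was 0.199 at most in the other 11, namely without controls 1, 2, 4 or 6, pregnancy 3, 7 or 9, or hormone 1, 2, 3 or 4.

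For 154 genes all 5 pregnancy arrays lay above all 5 hormone arrays (1.08%), and for 188 they lay below (1.32%). No other gene passed the adjusted test, so the following are values with their errors. The widest of the separated genes that were higher after pregnancy was Mmp9, gelatinase B, a protease of neutrophils and macrophages that cuts basement membrane collagen. Mmp9 was at 6.98, 7.56, 6.62, 7.07 and 7.27 after pregnancy and at 5.06, 5.14, 5.27, 5.48 and 5.23 after hormone. Present calls were made on 5 of 5 pregnancy and 0 of 5 hormone arrays, so the hormone level was not told from background, and the difference of 1.86 (SE 0.42, adjusted p = 0.342), or 3.63-fold, is an estimate from the measured values. A dimmer Mmp9 probe set, also present on 5 of 5 pregnancy and 0 of 5 hormone arrays, differed by 1.51 (SE 0.36). The controls split: arrays 1, 4 and 5 were at 7.34, 6.71 and 7.28, and arrays 2 and 6 at 4.95 and 4.98. The same 3 control arrays had the lymph node list at 1.26, 1.28 and 1.36, and the other 2 had it at −0.84 and −0.73. Among pregnancy arrays the order differed, with the highest Mmp9 on array 2, where the lymph node list was at −0.61. The part of lymph node content in the Mmp9 values was not tested. A fit of the pregnancy and hormone arrays alone, which leaves the split controls out of the error, gave Mmp9 the same difference with an adjusted p of 0.00181. Of 26 alternative fits, Mmp9 passed in this 1 only, and its largest limma adjusted p was 0.991.

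Other genes that were higher and separated had smaller, tighter differences. Aagab, whose protein helps assemble clathrin adaptors, was at 9.44, 9.11, 9.44, 9.55 and 9.55 after pregnancy and at 8.73, 8.81, 8.71, 8.62 and 8.73 after hormone, a difference of 0.70 (SE 0.12, adjusted p = 0.209). It had present calls on 5 of 5 pregnancy, 0 of 5 hormone and 5 of 5 control arrays, so here too the size is an estimate. Its pseudogene Aagab-ps2, close in sequence and possibly read by the same RNA, differed by 0.42 (SE 0.07, adjusted p = 0.26). Both had controls on the pregnancy side, between 9.13 and 9.76 for Aagab and between 9.91 and 10.19 for Aagab-ps2. Dip2b, a disco-interacting protein homolog, was at 9.53, 9.25, 9.58, 9.39 and 9.40 against 8.47, 8.72, 9.08, 8.53 and 8.88, a difference of 0.69 (SE 0.13, adjusted p = 0.303). Of its dimmer probe sets, 1 was also separated and differed by 0.61 (SE 0.14), while the other overlapped, at 0.23 (SE 0.19). Its controls, at 9.37 to 9.93, lay within or above the pregnancy values.

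A2m, alpha-2-macroglobulin, a broad inhibitor of proteases, was at 6.52, 6.26, 6.24, 5.68 and 6.09 after pregnancy. On the hormone arrays A2m read 5.06, 5.17, 5.28, 5.33 and 5.52, with no present call, against 4 of 5 after pregnancy. The estimated difference was 0.88 (SE 0.17, adjusted p = 0.303), and controls were higher still, at 6.25 to 7.13. Tent5c, a poly(A) polymerase that lengthens the tails of secretory transcripts in plasma cells, went the other way against controls. It was at 9.07, 8.99, 9.0, 9.98 and 9.38 after pregnancy and at 8.20, 7.83, 8.41, 8.54 and 8.70 after hormone, a difference of 0.95 (SE 0.18, adjusted p = 0.303). The 5 controls, from 8.20 to 8.38, all lay within the hormone range.

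**Figure D2:**
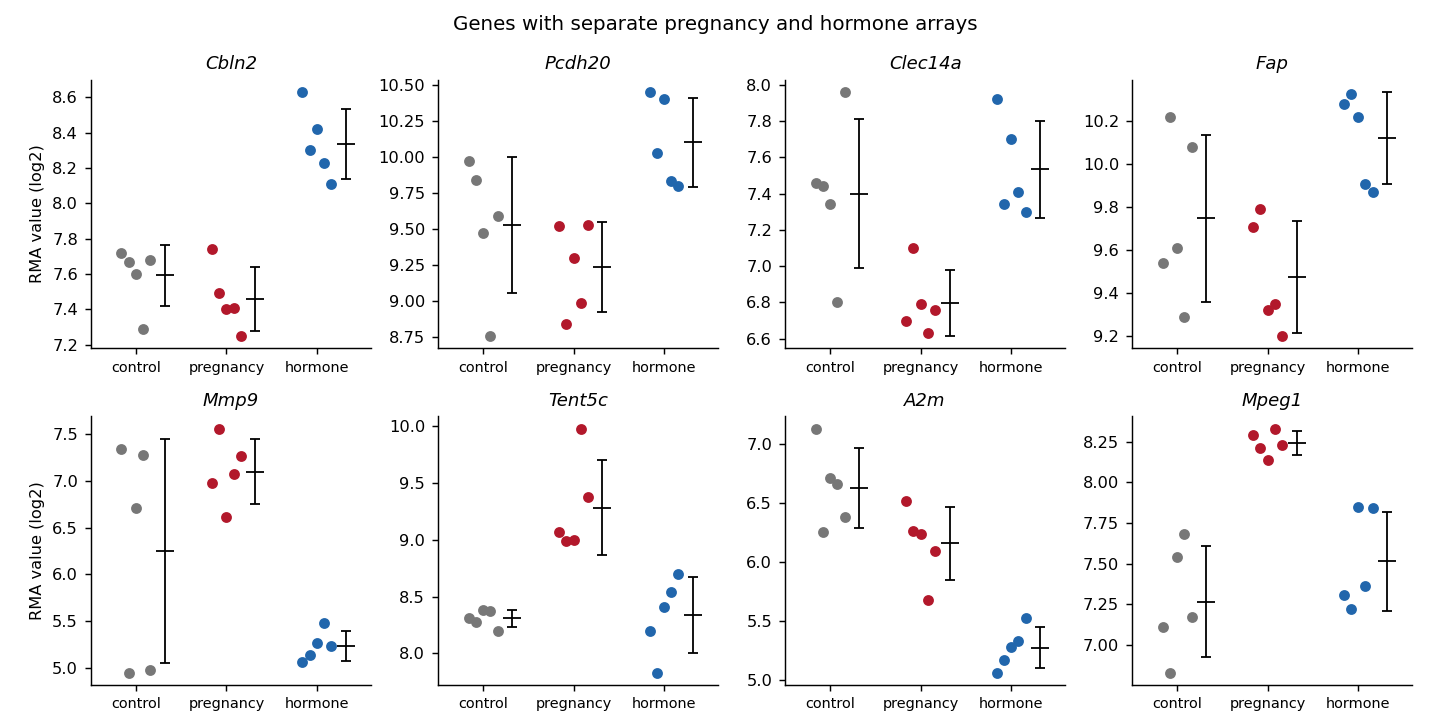
RMA values (log2, vertical axis, a separate scale for each gene) of 8 genes on each of the 15 arrays, with 5 points per group and a bar for the group mean ± SD. In each panel the pregnancy and hormone points do not overlap. Controls sit with the pregnancy points for Cbln2, with the hormone points for Tent5c, and are split for Mmp9.

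Among the separated genes that were lower after pregnancy, the 8 widest were Cbln2, Pcdh20, Clec14a, Angptl1, C1qtnf2, Fap, Plac9 and Nexmif. Pcdh20, a protocadherin of cell contacts, was at 9.52, 8.84, 9.30, 8.99 and 9.53 after pregnancy and at 10.45, 10.03, 10.40, 9.83 and 9.80 after hormone (difference −0.87, SE 0.22). Clec14a, a lectin of endothelial cells, was at 6.70, 7.10, 6.79, 6.63 and 6.76 against 7.92, 7.34, 7.70, 7.41 and 7.30 (difference −0.74, SE 0.18). Fap, fibroblast activation protein, a surface protease of stromal fibroblasts, was at 9.71, 9.79, 9.32, 9.35 and 9.20 against 10.28, 10.33, 10.22, 9.91 and 9.87 (difference −0.65, SE 0.17). All 3 had an adjusted p of 0.342. Their controls spread over both ranges, for example from 9.29 to 10.22 for Fap. Angptl1, a secreted angiopoietin-like protein, differed by −0.71 (SE 0.20), C1qtnf2, an adipokine-like secreted protein, by −0.66 (SE 0.19) and Plac9, a small secreted protein, by −0.61 (SE 0.18).

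Among the 12 lower genes with the smallest p, Dpp4, a surface peptidase found on fibroblast progenitors, was at −0.63 (SE 0.14), Tbx15, a transcription factor of mesenchyme, at −0.66 (SE 0.14) and Dclk1, a microtubule-binding kinase, at −0.54 (SE 0.12). Of 39 extracellular matrix genes, each called present on at least 3 of 5 arrays of a group, 38 were lower after pregnancy and 19 of them had an unadjusted p under 0.05, against 6.34% of all genes, while none passed the adjusted test. The median of the list was −0.27, against −0.02 over all genes. It lay between −0.36 and −0.20 in the 27 alternative settings.

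The fibrillar collagens, which form the tensile fibres of the stroma, were lower together. Col5a2, a chain of type V collagen that sets fibre width, was at 12.34, 12.73, 12.12, 12.37 and 12.16 after pregnancy and at 12.88, 12.78, 12.92, 12.73 and 12.79 after hormone. The hormone arrays were tightly grouped, and pregnancy array 2 came closest to them. The difference was −0.48 (SE 0.10, adjusted p = 0.342), and its dimmer probe sets differed by −0.53 (SE 0.15) and −0.10 (SE 0.12). Col5a1 differed by −0.50 (SE 0.14). The chains of type I collagen, Col1a1 and Col1a2, differed by −0.34 (SE 0.10) and −0.31 (SE 0.07), with no overlap between the groups, and Col3a1 by −0.23 (SE 0.07).

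Fbn1, fibrillin 1, the backbone of elastic microfibrils, had the largest difference of the list. It was at 12.22, 12.76, 11.57, 12.04 and 11.97 after pregnancy and at 12.65, 12.61, 13.07, 12.82 and 12.52 after hormone, a difference of −0.62 (SE 0.17). Pregnancy array 2 lay inside the hormone range and the other 4 below it. Mfap5, a microfibril partner of fibrillin, differed by −0.39 (SE 0.10). Lox, the enzyme that crosslinks collagen and elastin, differed by −0.56 (SE 0.22), and its relatives Loxl1 and Loxl2 by −0.35 (SE 0.18) and −0.38 (SE 0.14).

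Type VI collagen, which forms beaded filaments around fat and muscle cells, showed Col6a3 at −0.41 (SE 0.09), with its dimmer probe set at −0.08 (SE 0.22), Col6a1 at −0.31 (SE 0.12) and Col6a2 at −0.19 (SE 0.12). Basement membrane genes were uneven. The nidogens Nid1 and Nid2, which bridge laminin to collagen IV, were at −0.27 (SE 0.12) and −0.39 (SE 0.17), while Col4a1 and Col4a2 were at −0.09 (SE 0.11) and −0.07 (SE 0.15). The small proteoglycans ranged from Ogn, osteoglycin, at −0.41 (SE 0.15) to Dcn, decorin, at −0.08 (SE 0.06) and Fmod, fibromodulin, at −0.02 (SE 0.17). The exception in sign was Fbln1, fibulin 1, at 0.07 (SE 0.26).

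**Figure D3:**
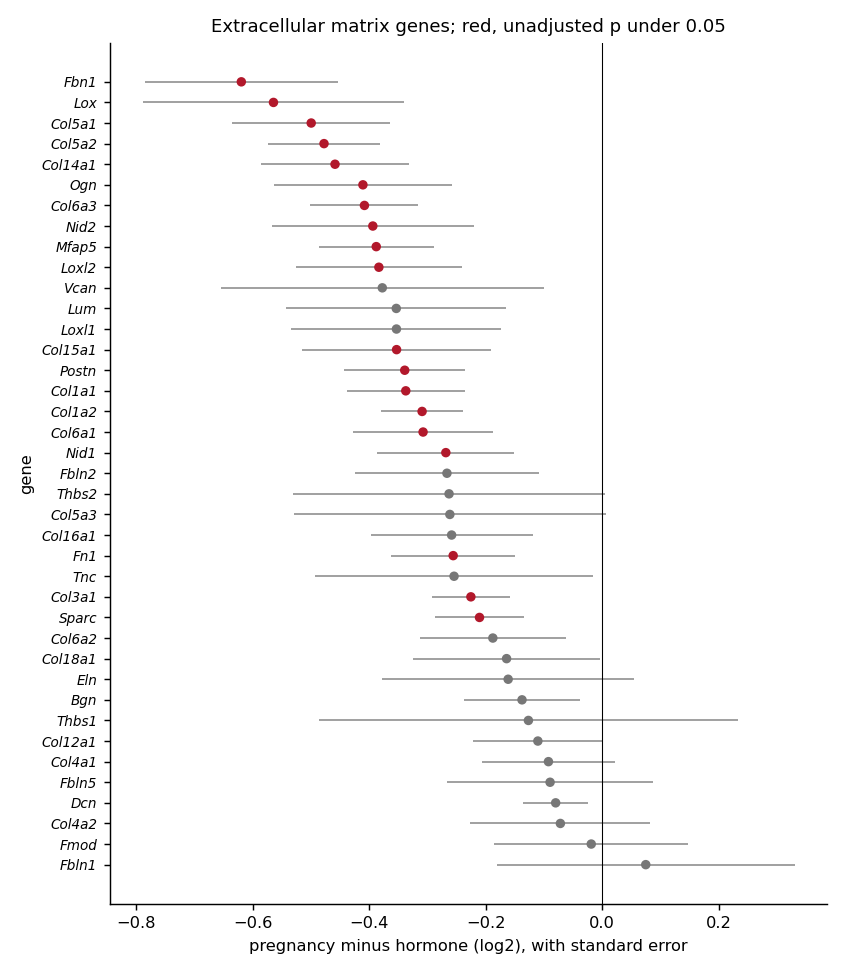
Pregnancy minus hormone (log2, horizontal axis) with its standard error for the 39 extracellular matrix genes, 1 per line, red where the unadjusted p was under 0.05. Points run from −0.62 for Fbn1 to 0.07 for Fbln1, and 38 of 39 lie left of 0.

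By array, the mean level of the matrix list over its members was −0.13, 0.13, −0.31, −0.18 and −0.36 after pregnancy and 0.12, 0.17, 0.09, 0.13 and 0.02 after hormone, relative to its mean over the 15 arrays. Pregnancy array 2 lay within the hormone range and the other 4 below it. Controls were at 0.04, 0.21, −0.13, 0.15 and 0.06. The median over members was −0.36 without pregnancy array 2, −0.20 without pregnancy array 9 and −0.22 without the 3 muscle-rich arrays. It was −0.23 once the lymph node level entered as a covariate. Without pregnancy array 2, Col1a2 and 2 probe sets of Col5a2 also passed the adjusted test.

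Beside the matrix, other stromal cell types had lower members too. Of 17 Schwann cell and nerve genes 12 were lower, 5 of them with an unadjusted p under 0.05, against 6.34% of all genes, and the median was −0.11. Of the 12 called present on at least 3 of 5 arrays of a group, 8 were lower, 3 of them at that p. Over all 14233 genes, 7852 were lower. Mbp, myelin basic protein, and the glial marker S100b were at −0.01 (SE 0.14) and −0.04 (SE 0.14), and Sox10 and Egr2, which drive Schwann cell fate and myelination, were at 0.41 (SE 0.26) and 0.44 (SE 0.66).

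Endothelial genes were lower in 18 of 23 members, with a median of −0.13, and 5 of these had an unadjusted p under 0.05, against 6.34% of all genes. Sox17, a transcription factor of arteries, was at 9.39, 8.97, 8.96, 9.02 and 9.30 after pregnancy and at 10.08, 9.73, 9.53, 9.67 and 9.39 after hormone (difference −0.55, SE 0.16), and a dimmer probe set present on every array was at −0.23 (SE 0.14). Tek, the angiopoietin receptor, was at −0.36 (SE 0.10) and Vwf, von Willebrand factor, at −0.45 (SE 0.14). The general vessel markers Pecam1, Cdh5 and Kdr, the main VEGF receptor, were at 0.04 (SE 0.11), −0.10 (SE 0.10) and 0.12 (SE 0.09). Angpt1, a ligand of Tek, was higher, at 0.30 (SE 0.13). Of 14 mast cell genes 11 were lower, with a median of −0.11, and 5 had an unadjusted p under 0.05, against 6.34% of all genes. The median was −0.085 without pregnancy array 2, −0.17 without pregnancy array 3, −0.19 without pregnancy array 9 and −0.20 without the 3 muscle-rich arrays. These 5 were Fcer1a and Ms4a2, chains of the immunoglobulin E receptor, at −0.59 (SE 0.23) and −0.42 (SE 0.17), the granule proteases Cpa3 and Cma1 at −0.50 (SE 0.14) and −0.39 (SE 0.12), and Hdc, which makes histamine, at −0.43 (SE 0.13). Tpsab1 and Tpsb2, the tryptases, were at −0.10 (SE 0.19) and −0.09 (SE 0.12).

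**Figure D4:**
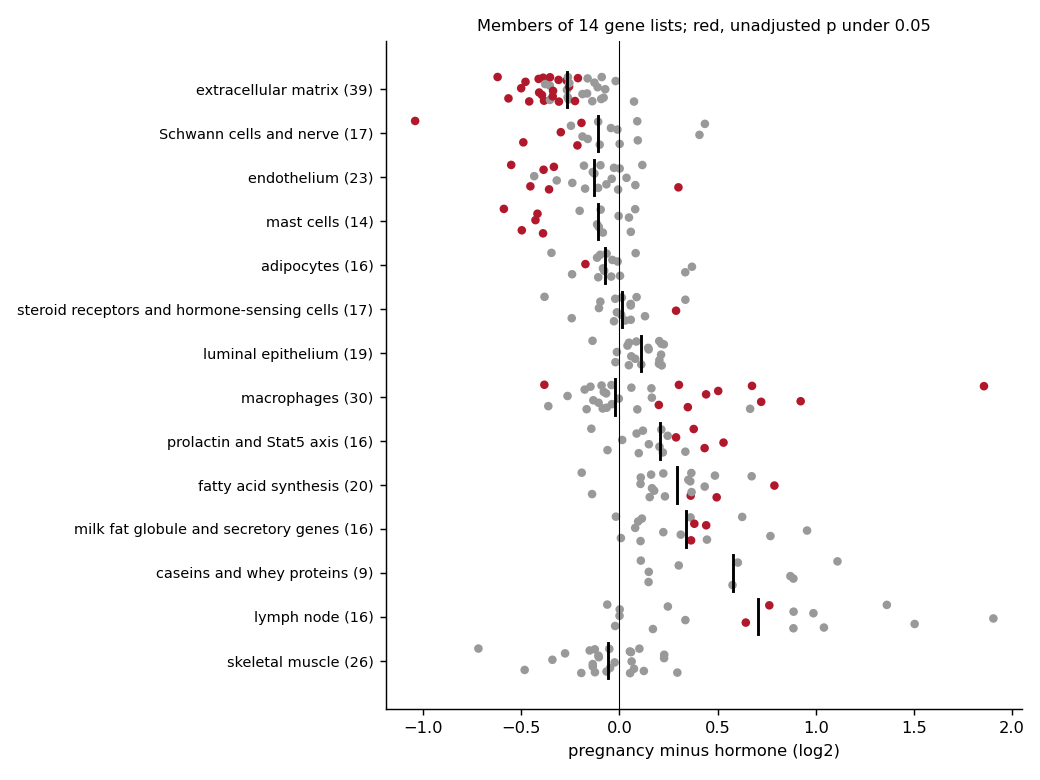
Pregnancy minus hormone (log2, horizontal axis) for each measured member of 14 gene lists (number measured in brackets), 1 point per gene, red where the unadjusted p was under 0.05, with a bar at the list's median. The matrix list sits left of 0 with a median of −0.27. The casein and whey protein list sits right of 0 with a median of 0.58. The macrophage list has both a cluster left of 0 and a tail to the right.

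On the higher side, milk-related genes lay above the hormone arrays by amounts that did not pass. All 9 measured members of the casein and whey protein list were higher after pregnancy, with a median of 0.58. None had an unadjusted p under 0.05. Besides caseins, Wap and Lalba the list holds Muc1, Cel, Glycam1 and Spp1. These were at 0.30 (SE 0.28), 0.58 (SE 0.28), 0.89 (SE 0.92) and 1.11 (SE 0.52), and the value of Cel is the median. Csn2, beta-casein, was at 13.84, 14.28, 13.84, 14.35 and 14.13 after pregnancy and at 14.09, 11.50, 13.40, 14.25 and 14.19 after hormone. Hormone array 2 was far below the rest and the other 4 lay near the pregnancy range (difference 0.60, SE 0.62, adjusted p = 0.773). Wap, whey acidic protein, was at 12.11, 13.37, 11.95, 13.53 and 13.30 against 11.97, 10.34, 11.86, 12.55 and 13.17 (difference 0.87, SE 0.51). Csn2 in controls was at 9.60 to 12.97 and Wap at 9.81 to 11.73. Csn1s1, Csn3 and Lalba, near the top of the scale at 14.01 to 14.57 in both groups, differed by 0.15 (SE 0.10), 0.11 (SE 0.12) and 0.15 (SE 0.11). Across the settings the median of the casein and whey protein list lay between 0.10 and 0.70, and it was 0.10 without hormone array 2.

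Genes of the milk fat globule and of secretion were higher in 15 of 16 members with a median of 0.34, and 3 had an unadjusted p under 0.05, against 2.88% of all genes. The median was 0.22 without pregnancy array 9 and 0.21 without the 3 muscle-rich arrays. Mfge8, a coat protein of the globule that also tags dying cells for uptake, was at 13.27, 13.38, 13.14, 13.71 and 13.58 against 12.89, 12.72, 12.74, 13.33 and 13.21 (difference 0.44, SE 0.15, adjusted p = 0.416). B4galt1, a subunit of lactose synthase, and Slc2a1, the glucose carrier, were at 0.37 (SE 0.16) and 0.38 (SE 0.17). Fabp3, a fatty acid carrier, differed by 0.96 with an SE of 0.68, its pregnancy array 7 standing at 13.22 and the other 9 arrays between 9.12 and 11.78. Xdh and Tf, at 0.10 (SE 0.06) and 0.08 (SE 0.07), had the smallest errors of the list, and a dimmer Xdh probe set was at −0.02 (SE 0.10).

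The prolactin and Stat5 axis was higher in 14 of 16 members, with a median of 0.21, and 4 had an unadjusted p under 0.05, against 2.88% of all genes. Stat5b, a transducer of prolactin and growth hormone, was at 9.08, 8.87, 9.10, 9.50 and 9.11 after pregnancy and at 8.41, 8.78, 8.46, 8.86 and 8.97 after hormone (difference 0.43, SE 0.15, adjusted p = 0.416). Its partner Stat5a was at 0.25 (SE 0.12). Tnfrsf11a, the receptor RANK that relays progesterone signals, was at 8.76, 9.15, 8.87, 9.49 and 8.89 against 8.17, 8.33, 8.17, 9.11 and 8.73 (difference 0.53, SE 0.19). Gata3, a luminal transcription factor, was at 0.29 (SE 0.11) and Id2, a helix-loop-helix regulator of alveolar growth, at 0.38 (SE 0.18). A dimmer Gata3 probe set was at 0.60 (SE 0.19). The receptor Prlr, the kinase Jak2 and the alveolar factor Elf5 were at 0.09 (SE 0.16), 0.01 (SE 0.09) and 0.21 (SE 0.27), and 4 other Prlr probe sets were at −0.12 to 0.36. By array the list was at 0.14, 0.05, 0.05, 0.30 and 0.03 after pregnancy and at −0.23, −0.16, −0.14, 0.08 and 0.04 after hormone, and its median was 0.12 without pregnancy array 7.

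Lipid synthesis genes lay higher as well. Of 20 fatty acid synthesis genes 18 were higher, with a median of 0.29, and 3 had an unadjusted p under 0.05, against 2.88% of all genes. Acacb, the acetyl-CoA carboxylase at the mitochondrion, was separated, at 7.29, 7.64, 7.34, 7.58 and 8.54 against 6.27, 6.91, 6.83, 7.16 and 7.28 (difference 0.79, SE 0.24, adjusted p = 0.388). It had present calls on 5 of 5 pregnancy and 2 of 5 hormone arrays. Acly, which makes cytosolic acetyl-CoA, and the elongase Elovl5 were at 0.36 (SE 0.13) and 0.50 (SE 0.19), and Fasn, fatty acid synthase, at 0.36 (SE 0.19). Pregnancy array 9 had the highest level of this list, 0.71, and the median was 0.19 without it.

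The cholesterol synthesis list also had its highest level on pregnancy array 9. The list of 21 genes was higher in 16, with a median of 0.21, and 6 had an unadjusted p under 0.05, against 2.88% of all genes. By array it was at −0.00, −0.05, −0.08, 0.05 and 0.72 after pregnancy and between −0.20 and 0.01 after hormone, and without pregnancy array 9 its median was 0.05. The same array had the skin keratinocyte list at 1.04, against −0.23 to 0.13 on the other pregnancy arrays. Sc5d, a sterol desaturase, was separated, at 8.76 to 9.20 against 8.50 to 8.75 (difference 0.30, SE 0.08, adjusted p = 0.352), but its other probe set, present on every array, overlapped, at −0.01 (SE 0.10). Srebf2 was the other separated member of the list, at 0.33 (SE 0.14). Hsd17b7, with the smallest p of the list, was called present on none of the 10 arrays, and its size is not given.

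Fat cell genes were close in the 2 groups. Of 16 adipocyte genes 4 were higher and 12 lower, with a median of −0.07. Adiponectin, Adipoq, was at 13.28 to 13.53 after pregnancy and 13.34 to 13.70 after hormone. Cfd, adipsin, at −0.17 (SE 0.08), had the lowest p of the list. Luminal and myoepithelial genes had medians of 0.11 and 0.09, with no luminal gene at an unadjusted p under 0.05. Krt8 and Krt18, the luminal keratins, were at 0.20 (SE 0.27) and 0.04 (SE 0.24). Krt5, the basal keratin 5, was at 11.18, 10.96, 10.05, 11.93 and 11.15 after pregnancy against 9.86, 9.85, 9.96, 11.03 and 10.65 after hormone, overlapping, with a difference of 0.78 (SE 0.38, adjusted p = 0.51).

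Macrophage genes lay on both sides of 0. Of 30 genes 14 were higher and 16 lower, with a median of −0.02, and 9 of the higher and 1 of the lower had an unadjusted p under 0.05, against 2.88% and 6.34% of all genes. Mpeg1, perforin-2, which punches holes in engulfed bacteria, was at 8.29, 8.21, 8.14, 8.33 and 8.23 after pregnancy and at 7.31, 7.22, 7.85, 7.36 and 7.84 after hormone. Its groups were separated and the pregnancy arrays agreed closely (difference 0.72, SE 0.16, adjusted p = 0.342). Cd5l, a protein that macrophages secrete, was at 8.02, 9.67, 5.93, 8.35 and 7.0 against 5.81, 5.29, 5.92, 6.54 and 6.12. Pregnancy array 3 lay inside the hormone range and array 2 far above it (difference 1.86, SE 0.49, adjusted p = 0.342), while controls were at 4.86 to 5.27.

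Ccl9, a chemokine of myeloid cells, followed the same arrays, at 9.07, 9.47, 7.92, 9.25 and 8.32 against 7.94, 7.77, 8.02, 7.64 and 8.03 (difference 0.92, SE 0.25, adjusted p = 0.352). Itgax, CD11c, was at 0.50 (SE 0.16), the lysosome-linked Gpnmb at 0.44 (SE 0.15), the lysosomal lipase Lipa at 0.35 (SE 0.14), lysozyme, Lyz2, at 0.30 (SE 0.12) and cathepsin D, Ctsd, at 0.20 (SE 0.09). Trem2, the other of the 9, had no present call. General macrophage markers lay on both sides of 0. Cd68, Cybb and Itgam (CD11b) were at 0.06 (SE 0.10), 0.09 (SE 0.12) and 0.16 (SE 0.08). Below 0 were Adgre1 (F4/80) at −0.36 (SE 0.18), Fcgr1a at −0.38 (SE 0.17), Mrc1, the mannose receptor, at −0.18 (SE 0.13), Csf1r at −0.13 (SE 0.10) and C1qa at −0.15 (SE 0.10). Gpnmb was at 11.30 to 11.90 in controls, below the lowest of both groups, 12.25, and Mmp12, macrophage elastase, at 8.07 to 9.24 in controls, was at 11.44, 11.25, 10.54, 11.37 and 10.50 against 9.96, 9.17, 10.95, 10.44 and 11.26 (difference 0.67, SE 0.35, adjusted p = 0.542).

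Lymphocyte genes were among those with wide differences and wide errors. Of 11000 genes called present on at least 3 of 5 arrays of a group, 34 were over 1 log2 unit higher after pregnancy and 3 were over 1 log2 unit lower. Of the 34, 8 had an unadjusted p under 0.05. The 34 were picked by the size of the same difference, so this count cannot be compared with the 2.88% of all genes. The B cell, T cell and lymph node lists hold 12 of the 34, but not every lymphoid gene. IgG-2a, an immunoglobulin gene named after its values were seen, is in none of these lists. It had the widest difference of the 34, 2.75 (SE 1.12). The lists for B and plasma cells, for T and NK cells and for the lymph node had medians of 0.71, 0.58 and 0.70, with 14 of 14, 16 of 24 and 14 of 16 members higher. With 1 probe set per gene, no member of the first and second of these lists had an unadjusted p under 0.05. In the lymph node list 2 of 16 did, against 2.88% of all genes. Jchain, which joins immunoglobulin A and M into polymers, was at 11.42, 11.47, 12.02, 10.84 and 11.69 after pregnancy and at 9.96, 7.69, 11.75, 9.26 and 11.21 after hormone (difference 1.51, SE 0.86). Igha, the immunoglobulin A heavy chain, was at 11.95 to 12.60 against 8.75 to 12.79 (difference 1.22, SE 0.77). In both, hormone arrays 3 and 5 matched the pregnancy arrays and hormone arrays 1, 2 and 4 lay below.

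Ccl21, a chemokine that draws lymphocytes and dendritic cells into lymph nodes, was separated, at 13.30, 12.73, 13.38, 13.06 and 12.72 against 11.59, 12.37, 12.70, 12.69 and 12.61 (difference 0.64, SE 0.20, adjusted p = 0.394). The lymph node list was at 0.18, −0.61, 1.06, −0.44 and 0.31 after pregnancy and at −0.58, −0.97, −0.63, −0.65 and 0.00 after hormone. Without pregnancy array 3 the T and NK cell median was 0.27 and the lymph node median 0.55, and without the 3 muscle-rich arrays each was 0.81. Of the granzymes of cytotoxic cells, Gzma, granzyme A, was at 9.37, 9.14, 9.06, 8.81 and 8.18 against 8.75, 8.93, 9.15, 9.46 and 9.81 (difference −0.31, SE 0.30, with a dimmer probe set at 0.05, SE 0.18), and Gzmb at −0.14 (SE 0.14).

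**Figure D5:**
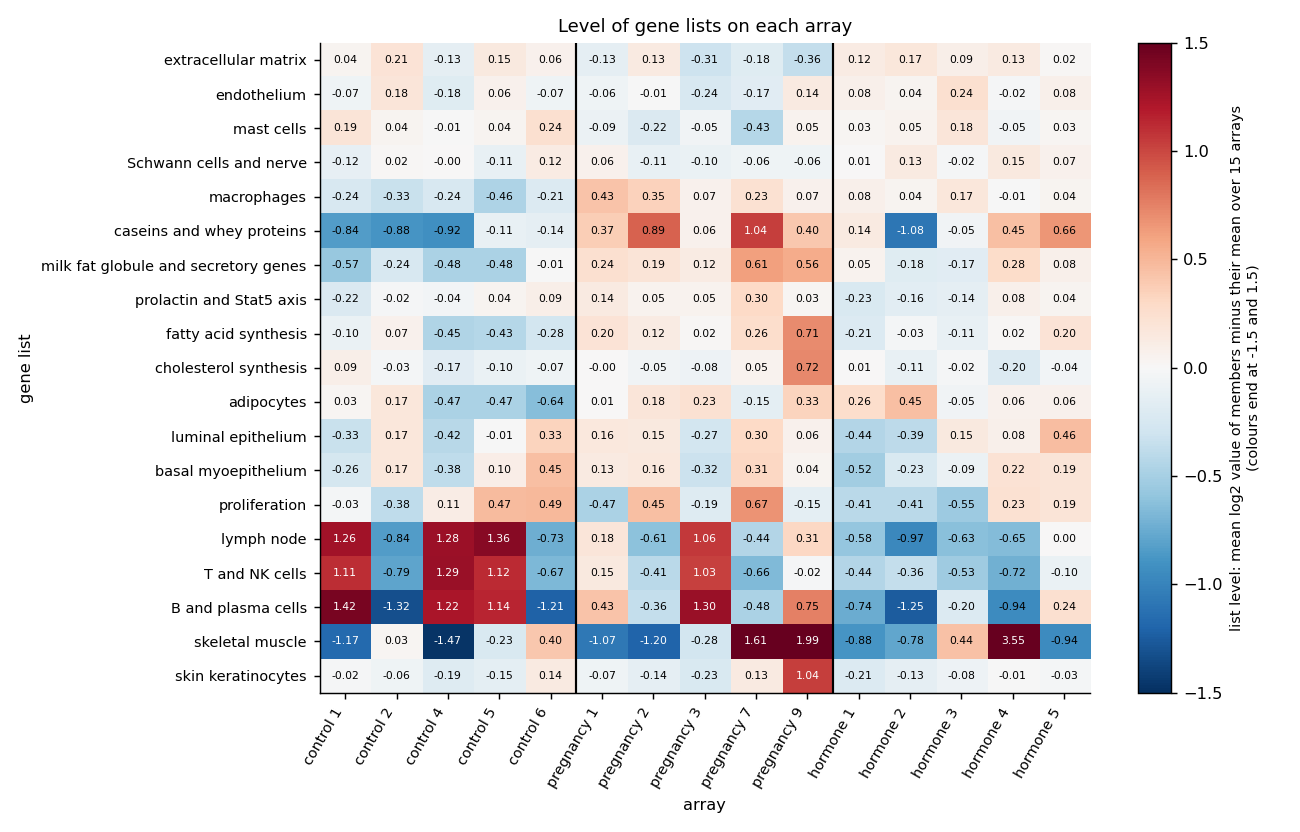
Level of 19 gene lists (rows) on each of the 15 arrays (columns), as the mean log2 value of the members minus their mean over the arrays, printed in each cell and coloured from blue (low) to red (high). The matrix row is below 0 on 4 of 5 pregnancy arrays and above 0 on 5 of 5 hormone arrays, while the lymph node and muscle rows are high on single arrays.

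Cell division genes were higher in 26 of 30 members with a median of 0.24, but with overlapping levels and no member at an unadjusted p under 0.05. Their level was −0.47, 0.45, −0.19, 0.67 and −0.15 after pregnancy and −0.41, −0.41, −0.55, 0.23 and 0.19 after hormone, and leaving out 1 array moved the median between 0.09 (without pregnancy array 7) and 0.39 (without pregnancy array 1). Mcm3, part of the helicase that opens DNA for replication, was separated, at 8.58 to 9.51 against 8.22 to 8.56 (difference 0.61, SE 0.31, adjusted p = 0.533). Its highest pregnancy value was on array 3, where the lymph node list was at 1.06. Controls 1, 4 and 5, also high in that list, had Mcm3 at 9.85, 9.95 and 10.23. Controls 2 and 6 had it at 8.22 and 8.95. The part of lymph node content in the Mcm3 values was not tested. Mki67, the marker Ki-67, was at 0.49 (SE 0.52). The growth arrest list had a median of −0.04. Within it Cdkn1a, the inhibitor p21, was at 8.91, 8.82, 8.70, 8.65 and 9.53 against 8.26, 8.64, 8.65, 8.68 and 8.56 (difference 0.36, SE 0.16).

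Hormone and growth factor pathways had medians near 0. The steroid receptor and hormone-sensing list was at 0.01, growth hormone and IGF at −0.00, the EGF family at 0.02, TGF-beta at 0.02, Wnt at 0.03 and Notch at −0.04. Esr1, the estrogen receptor, was at 6.53, 7.07, 7.13, 7.56 and 6.77 against 7.68, 7.09, 6.98, 6.54 and 7.29, with a difference of −0.10 (SE 0.24). Pgr, the progesterone receptor and a target of estrogen, ran from 5.94 to 8.91 against 6.83 to 8.36, a difference of 0.13 (SE 0.53) with other probe sets at −0.09 (SE 0.36) and −0.08 (SE 0.60), and Areg, amphiregulin, an EGF receptor ligand made by hormone-sensing cells, differed by 0.03 (SE 0.56). With errors of this size, differences of 1 log2 unit either way in Pgr or Areg were not detectable.

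Single members of these pathways stood apart from their lists. Igf1, a growth factor that mammary stroma makes, was at 12.81, 13.14, 13.14, 12.84 and 12.57 after pregnancy and at 13.62, 13.48, 13.21, 13.07 and 13.04 after hormone. Hormone arrays 4 and 5 overlapped the pregnancy arrays (difference −0.38, SE 0.14, adjusted p = 0.426), and its 3 other probe sets were at −0.41, −0.33 and −0.29. Ghr, the growth hormone receptor, was at −0.27 (SE 0.23), Igfbp6 at −0.37 (SE 0.14) and Igfbp5, whose product binds IGFs during involution, at −0.02 (SE 0.06). The 4 dimmer Igfbp5 probe sets, all present on every array, were at 0.15 to 0.34, and 1 of them was separated, at 0.27 (SE 0.24). A dimmer Ghr probe set was at −0.04 (SE 0.23). In the TGF-beta list, Ltbp1, which tethers latent TGF-beta to fibrillin, was at −0.43 (SE 0.13), while Smad7, an inhibitor of the pathway, and the co-receptor Tgfbr3 were at 0.30 (SE 0.11) and 0.47 (SE 0.18). Wnt2, a stromal ligand, was at −0.53 (SE 0.21), with its dimmer probe sets at −0.42 (SE 0.20) and −0.29 (SE 0.15). Notch1 was at 0.22 (SE 0.09), but its other probe set, also present on every array, was at −0.11 (SE 0.10).

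Matrix proteases other than Mmp9 were mixed. Of 25 proteases and inhibitors 14 were higher and 11 lower, with a median of 0.01. Mmp2 and its activator Mmp14, made by fibroblasts, were at −0.27 (SE 0.11) and −0.25 (SE 0.14), Mmp15 at −0.33 (SE 0.13) and Plat, tissue plasminogen activator, at −0.38 (SE 0.15). Neutrophil collagenase, Mmp8, was at 0.71 (SE 0.32). The inhibitors Timp1 and Timp3 were at −0.04 (SE 0.27) and −0.03 (SE 0.14).

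Wide differences below 0 were also measured for Vsnl1, a neuronal calcium sensor, and Calml4, a calmodulin-like gene, both named after their values were seen. Vsnl1 was at 8.06, 6.54, 7.17, 6.82 and 6.19 after pregnancy and at 8.89, 8.90, 8.04, 8.37 and 7.13 after hormone, overlapping, with a difference of −1.31 (SE 0.40). Calml4 was at 7.57, 7.18, 6.94, 6.81 and 6.52 against 9.03, 8.23, 8.08, 7.71 and 7.28 (difference −1.06, SE 0.27). On the higher side, Wfdc3, a small gene of the whey acidic protein family, was at 7.09, 8.80, 7.01, 8.70 and 9.04 against 6.13, 5.43, 5.97, 7.98 and 7.45 (difference 1.54, SE 0.49, adjusted p = 0.396), with present calls on 4 of 5 and 2 of 5 arrays and on 0 of 5 controls. Car2, carbonic anhydrase 2, was at 11.23, 11.62, 10.90, 12.65 and 12.23 against 11.43, 9.83, 10.39, 11.29 and 10.17 (difference 1.11, SE 0.38). Controls were at 9.20 to 9.49 on 4 arrays and at 10.52 on the other, so the 5 pregnancy arrays lay above all controls and hormone arrays 2, 3 and 5 did not. Car3, the abundant fat cell form, was at −0.07 (SE 0.09).

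Detection calls differed fully for few probe sets. For 6 probe sets every pregnancy array and no hormone array had a present call, and for 2 it was the other way round. The 6 were 2 of Mmp9 and 1 each of Aagab, Ttf2 and Tnfaip2, with 1 that names no gene. Ttf2 and Tnfaip2 were chosen after their calls were seen and differed by only 0.13 (SE 0.06) and 0.20 (SE 0.09). The 2 in reverse, Mindy4, a deubiquitinase, and Ppcdc, an enzyme of coenzyme A synthesis, differed by −0.18 (SE 0.11) and −0.11 (SE 0.07), with overlapping groups.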

How the data were processed

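Total RNA of each gland was amplified with NuGEN Ovation V2 and hybridised to 1 Affymetrix rat array, per the labels' protocols. The deposited log2 values are RMA values, and the deposited detection calls (present, marginal or absent) are MAS5 calls, per the submitters' processing notes, which name GCOS, RMA, MAS5 and affy; the sources used here do not state the genome build or annotation date. Quantile normalisation gives all arrays nearly the same distribution, so a shift of all genes together would not show. The series' 2 deposited tables held the same log2 values. Of 31099 probe sets, the 57 for controls were dropped; 15 columns of 5 arrays outside the labelled samples were not used, nor were the authors' own comparisons.

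limma 3.58.1 in R 4.3.3 fitted 1 mean per group on 15 arrays (lmFit, eBayes), with Benjamini-Hochberg adjustment over 31042 probe sets and a threshold of 0.05; the script was tested on simulated data. Each of 14233 genes was read from its brightest probe set naming 1 gene. Counts, figures and tables used Python 3.11.15. Of 745 symbols in 36 gene lists, 689 were measured. The members and lists were chosen with earlier results of these data known, and some genes stand in more than 1 list. Genes named were, among those present on at least 3 of 5 arrays of a group: per direction the 12 with the smallest p, the 8 widest with separated groups, a set of mammary genes, 2 per list with the smallest p, and those present on all arrays of 1 group and none of the other; further list members are given to describe their list. Labels number the rats, each gland being from 1 rat. The number of arrays limits the precision. Alternatives changed the arrays, filter, scaling, weights, prior, composition covariates and block. Some genes are not reported here.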

Additional observations from a re-analysis of the deposited data

Results flagged for a closer look

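Dixon's test for a single array apart from the other 4 of its group marked 10 of 340 groups tested (2.94%), where chance marks about 1 in 20. Pregnancy array 9 stood apart with the cholesterol synthesis list at 0.72 against −0.08 to 0.05, the skin keratinocyte list at 1.04 against −0.23 to 0.13, and Acacb at 8.54 against 7.29 to 7.64. Pregnancy array 2 was low for Aagab at 9.11 against 9.44 to 9.55, for Aagab-ps2 at 9.81 against 10.04 to 10.12, and for Dnajb1, a heat shock co-chaperone, at 10.15 against 10.38 to 10.45. Pregnancy array 1 was low for Atp5pb, a subunit of ATP synthase, at 12.75 against 12.89 to 12.93. Hormone array 4 was high for the brown fat list at 0.32 against −0.08 to 0.03 and for Tnnc1, the troponin C of slow muscle, at 9.72 against 6.36 to 6.62. Hormone array 1 was low for Cdkn1a at 8.26 against 8.56 to 8.68.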

How the results depend on the processing

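The count of probe sets past the adjusted threshold was small in every setting. With the pregnancy and hormone arrays alone it was 6 (Aagab, Bzw2, Polr1a and 2 of Mmp9 higher, Cbln2 lower) and with array weights 4. It was 0 once the lymph node level entered as a covariate (smallest limma adjusted p = 0.0777, 2807 at an unadjusted p under 0.05) and 0 without the 3 muscle-rich arrays, a setting with 1117 probe sets at that unadjusted p in place of 3092. Leaving out 1 array at a time gave 0 to 9 past the threshold and 2046 to 3842 at the unadjusted p, lowest without hormone array 1 and pregnancy array 7 (2053); the 9 came without pregnancy array 2, and 2 each came without control 5 and hormone 5. At the unadjusted p, 4404 probe sets were counted with the pregnancy and hormone arrays alone and 4377 with array weights. Centring the arrays left 1096 higher and 2128 lower (34.0% higher, against 44.6%). Probe sets with separated groups numbered 871 of 31042, of which 495 were higher. With arrays centred there were 940, of which 371 were higher. Without 1 pregnancy or hormone array there were 1054 to 2229, a count that can only stay or rise when an array is left out. Detection differences numbered 8, 5 with marginal calls counted as present, and 188 at 4 of 5 arrays against at most 1 of 5.

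Among named genes whose size exceeded its SE, Gzma changed sign in 2 settings: −0.31 became 0.025 without the 3 muscle-rich arrays and 0.24 in the replicate block. The T and NK cell median of 0.58 became −0.12 with the lymph node covariate and the B and plasma cell median of 0.71 became 0.06. The skeletal muscle median of −0.06 became −0.58 without pregnancy array 9 and 0.88 without hormone array 4, and the cholesterol median of 0.21 became −0.01 without the muscle-rich arrays and −0.0027 in the replicate block. Medians near 0 in the report, such as that of macrophages (−0.05 to 0.07), also took both signs. The causes were not tested. What same-numbered rats shared beyond the number is not known here. Their deviations from the group means correlated at 0.109, −0.168 and 0.012 for numbers 1, 2 and 3, and 3 pairs cannot show whether a batch was shared. A replicate block over these 3 pairs gave 0 past the threshold (2670 unadjusted, smallest adjusted p = 0.168), and the number as a random block gave 1.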
